A study of Mus musculus with 15 samples.

Results

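Imprinted genes are transcribed mainly from the allele of 1 parent, because the alleles keep different DNA methylation from the egg and the sperm. Many of them control growth, metabolism and maternal behavior, and several are strongly expressed in the brain. The 10 imprinted genes described here were chosen by name, as a list, from the 25080 genes in the thalamus tables: Peg3, Snrpn, Nnat, Impact, Igf2, Plagl1 and Nap1l5, which are known as paternally expressed, H19 and Cdkn1c, which are known as maternally expressed, and Grb10, whose expressed parental allele is known to differ between neurons and other tissues. All 10 were listed in every table, and 9 of them had at least 1 TPM in at least 3 libraries and so belonged to the 13471 tested genes. TPM (a transcript level corrected for transcript length, with a fixed total per library) add up the alleles, so the values say nothing about which parental allele was read.

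RNA was sequenced from microdissected thalamus of mice aged 2 to 4 months. In Maged1-cKO mice Cre was expressed from the Vglut2 promoter, so that Maged1 was inactivated in Vglut2 neurons and not in the other cells of the tissue, and the controls, called Maged1 WT in the titles, were floxed littermates without this deletion per the study's methods, which used hemizygous males. All mice received saline for 3 days and then saline or intraperitoneal cocaine at 20 mg/kg for 5 days, which gave 14 libraries. Control and cKO mice each contributed 4 libraries after saline, and after cocaine there were 4 labelled control and 2 labelled cKO, with 1 further cKO sample not analysed here. Genotypes follow the sample titles, although the genotype tag of 4 saline libraries names the other genotype. Each table was scaled by a TMM factor (a trimmed mean of the gene ratios between libraries), and "scaled TPM" below are the values after this division. Replicates are separate samples in the labels.

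Maged1 itself went against the labels after cocaine. It was 155 ± 7.73 scaled TPM (SD, n = 4) in control saline and 71.9 ± 6.42 (SD, n = 4) in cKO saline, but after cocaine it was 73.7 ± 12.3 (SD, n = 4) under the control label and 163 ± 15.2 (SD, n = 2) under the cKO label. The cocaine groups are therefore named by label throughout, and the change averaged over the genotype labels, which stays the same if the cocaine labels were exchanged, is given beside the others. The listed TPM summed to 312659 to 377401 per library, with TMM factors of 0.807 to 0.947 in cocaine and 1.07 to 1.21 in saline libraries. TPM keep no read depth, so counting error is unknown. The summed thalamus markers (8 genes, among them Slc17a6, Tcf7l2 and Gbx2) ranged from 468 to 686 scaled TPM, and none of them was at 0 in any library. The sum does not show single markers, which could move in opposite directions. Calb2 was 119 to 135 in control saline and 66.3 to 111 in control cocaine. In cKO saline it was 44.9 to 104, and in cKO cocaine 127 to 129. Prkcd was 93.0 to 145, 181 to 247, 139 to 200 and 128 to 189 in the same order. Control saline 1 was the highest of the 14 libraries for all 8 choroid plexus markers and all 8 leptomeningeal fibroblast markers, and results that rest on it are given with and without it. In bulk tissue fewer cells of a type and less RNA per cell cannot be told apart.

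In control saline thalamus the 10 genes covered a wide range of levels. Per transcript length, Nap1l5, a member of the nucleosome assembly protein family, was the highest with a median of 190.2 scaled TPM (172.8 to 208, n = 4). Snrpn, which encodes the neuronal splicing protein SmN, followed at 161 (149.96 to 168), and their ranges did not overlap. Nnat, which encodes neuronatin, a small membrane protein of the endoplasmic reticulum, had a median of 115 (106 to 154). Impact, an inhibitor of the amino acid sensor kinase GCN2, had a median of 91.9 (90.5 to 110.1), and Peg3, a zinc finger gene known for its part in maternal behavior, a median of 87.6 (83.4 to 101). The neighbours Snrpn and Nnat, Nnat and Impact, and Impact and Peg3 overlapped in their ranges. Further down, Grb10 overlapped Igf2 and Plagl1 overlapped Cdkn1c, in each case through control saline 1. Grb10, an adaptor that dampens insulin and IGF receptor signalling, was clearly lower than Peg3 and the genes above Peg3, at 16.3 (15.8 to 18.3). Igf2, a growth factor, had a median of 5.62 (5.35 to 24.1), Plagl1, a zinc finger transcription factor, 3.65 (3.14 to 4.43), and Cdkn1c, the cyclin-dependent kinase inhibitor p57, 1.097 (1.00 to 3.52). H19, a long non-coding RNA, was listed at 0 in 2 of these 4 libraries and did not reach the filter.

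**Figure D1:**
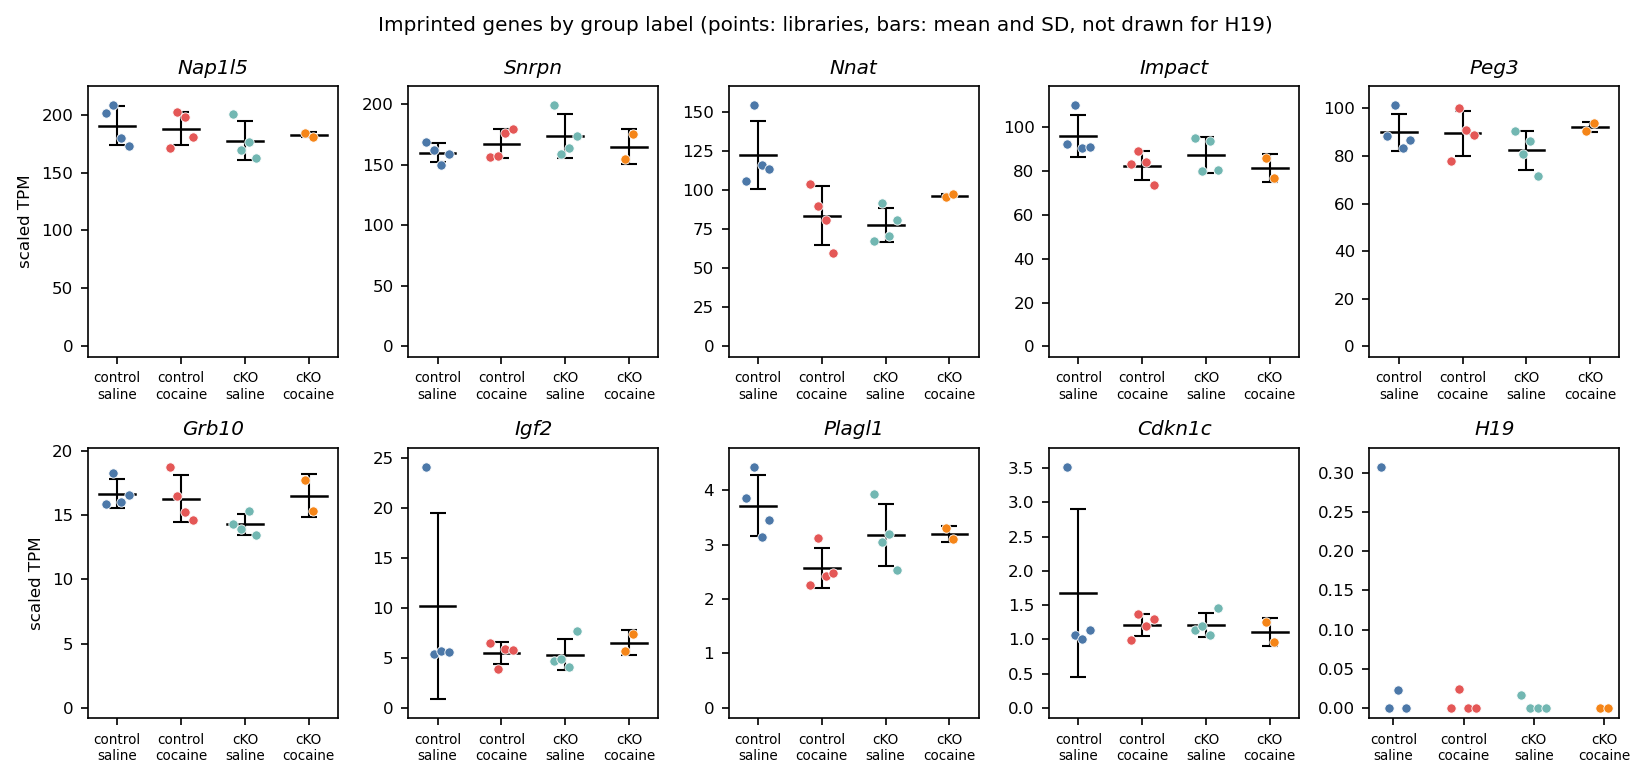
Scaled TPM (vertical axes) of the 10 imprinted genes by group label (horizontal axes), 1 point per library, with the mean and SD as bars (not drawn for H19). Nnat in control saline, from 106 to 154, lies above Nnat in the libraries labelled control cocaine and in cKO saline, and a single control saline library stands high for Igf2, Cdkn1c and H19.

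Cocaine against saline under the control label asked whether repeated cocaine changed these genes where Maged1 was labelled intact. Maged1 itself was lower in these cocaine libraries (log2 change -1.08, adjusted p = 5.9e-05 in limma). Under the cKO label it was higher after cocaine (1.18, adjusted p = 0.00024 in limma). In both contrasts cocaine and the Maged1 level differ together and cannot be told apart. Nnat was lower after cocaine and was the only gene of the 10 to pass the call, an adjusted p under 0.05 in limma with an absolute log2 change of at least 0.5. Of the 9 tested, 1 was called lower and 0 higher, where 1.56% of all 13471 tested genes were called lower. Plagl1 passed the adjusted p but not the fold minimum, so that 2 of 9 were lower by adjusted p alone, against 9.35% of all tested genes. The median log2 change of the 9 was -0.21, beside 0.01 over all tested genes, and 8 of the 9 changes were negative. That median was the change of Cdkn1c, which rested on control saline 1, and without this library the median was -0.04 and 7 of the 9 were negative. In 3 of the 9 (Nnat, Plagl1 and Impact) every cocaine library was below every saline library, which 10.3% of all tested genes showed.

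Nnat was 106, 154, 116 and 114 scaled TPM in the control saline libraries 1 to 4. After cocaine the control label held 104, 90.1, 81.2 and 59.5. The groups did not overlap, though control cocaine 1 at 104 came close to control saline 1 at 106. The log2 change was -0.56 (SE 0.16, 95% interval -0.91 to -0.22, adjusted p = 0.0227 in limma), with the exact two-sided permutation p = 0.0286, the smallest that 4 against 4 libraries allow. The call was lost without control saline 2 (-0.45, adjusted p = 0.0664), without control cocaine 4 (-0.41, adjusted p = 0.0559), when only the compared groups were fitted (adjusted p = 0.0543), with the genotype tags in place of the titles (-0.29, adjusted p = 0.446) and with only the libraries whose title and tag agree (-0.63, adjusted p = 0.101). Over the 26 alternatives the adjusted p ran from 0.00029 to 0.446.

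Under the cKO label the cocaine values of Nnat lay on the other side of saline. The cKO cocaine libraries held 95.8 and 97.5, above all of the cKO saline values of 67.5, 91.8, 70.5 and 80.9. The log2 change of 0.32 (SE 0.20, 95% interval -0.10 to 0.75) did not pass the test (adjusted p = 0.269 in limma). Nnat was thus lower in every control cocaine library and higher in every cKO cocaine library than in saline of the same label. This pattern was shown by 0.661% of tested genes, Maged1 among them, and the share is no test of Nnat. The difference between the cocaine changes under the cKO and control labels was 0.89 (SE 0.25) with an adjusted p of 0.0884 in limma, short of the threshold, and with the genotype tags it was 0.34 (SE 0.38, adjusted p = 0.884). Averaged over the labels, Nnat changed by -0.12 (SE 0.13, adjusted p = 0.511 in limma).

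After saline, where Maged1 followed the labels, the Nnat values of cKO thalamus lay below those of control thalamus. The log2 difference was -0.65 (SE 0.16, 95% interval -0.998 to -0.31), all 4 cKO libraries lay below all 4 control libraries (exact permutation p = 0.0286), and over all tested genes the adjusted p was 0.097 in limma, so that the call was not reached. With the genotype tags in place of the titles the difference was -0.11 (SE 0.24), and the 4 libraries whose tag and title disagree are all in this comparison. Maged1 in those 4 libraries followed the titles, as given above. This comparison uses the same control saline libraries as cocaine against saline under the control label. In the order of group means Nnat was highest in control saline (123 ± 21.7, SD, n = 4), then in cKO cocaine (96.7 ± 1.24, SD, n = 2), control cocaine (83.8 ± 18.7, SD, n = 4) and cKO saline (77.6 ± 11.1, SD, n = 4). Of these neighbours, control saline and cKO cocaine did not overlap, cKO cocaine lay within the range of control cocaine, and control cocaine overlapped cKO saline.

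Among all tested genes, the pattern most like that of Nnat over the 14 libraries was that of Dnah1, a dynein heavy chain of motile cilia (Pearson r = 0.955 on the log2 scale, 0.929 after the group means were removed). Under the control label Dnah1 was 1.101 to 1.59 scaled TPM after saline and 0.241 to 0.995 after cocaine, and under the cKO label 0.389 to 0.737 after saline and 0.981 to 1.25 after cocaine. The correlation is a description over libraries that share groups and scaling. Markers of several cell types differed between these groups, among them those of ependymal cells, the ciliated lining of the ventricles. Their sum (8 genes, none at 0 in any library, Foxj1 and Rsph1 among them) was 42.9 to 46.7 scaled TPM in saline controls and 7.80 to 44.5 after cocaine under their label, against 7.41 to 32.2 in cKO saline and 37.3 to 51.5 in cKO cocaine. Control cocaine 4 held the lowest Nnat and the lowest ependymal sum of its group, and cKO saline 1 the lowest of both in cKO saline. By contrast, cKO cocaine 1 held the highest ependymal sum of all, with Nnat at 95.8, below every control saline library. In cKO saline, library 2 held the highest Nnat and library 4 the highest ependymal sum. The sum of 12 hypothalamic marker genes, of which Oxt, Hcrt, Agrp and Kiss1 were at 0 in at least 1 library, was 137 to 469.8 scaled TPM in saline controls and 4.87 to 131 after cocaine under their label, against 12.5 to 152 in cKO saline and 36.6 to 77.5 in cKO cocaine. Control saline 2 was highest for Nnat and for the hypothalamic sum, whereas control cocaine 1 held the highest Nnat of its group with the lowest hypothalamic sum of all, and cKO saline 1 the lowest Nnat of its group with the highest such sum. Oligodendrocyte markers ranged in the opposite direction: the sum of 6 genes was 1401 to 1670 scaled TPM in saline controls and 1557 to 2430 after cocaine under their label, against 1727 to 2443 in cKO saline and 1863 to 1883 in cKO cocaine. Of the thalamus markers, Calb2 was higher in every control saline library than in any control cocaine library. Prkcd was lower in every control saline library than in any control cocaine library. The part of these cell types and markers in the Nnat values was not tested.

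**Figure D2:**
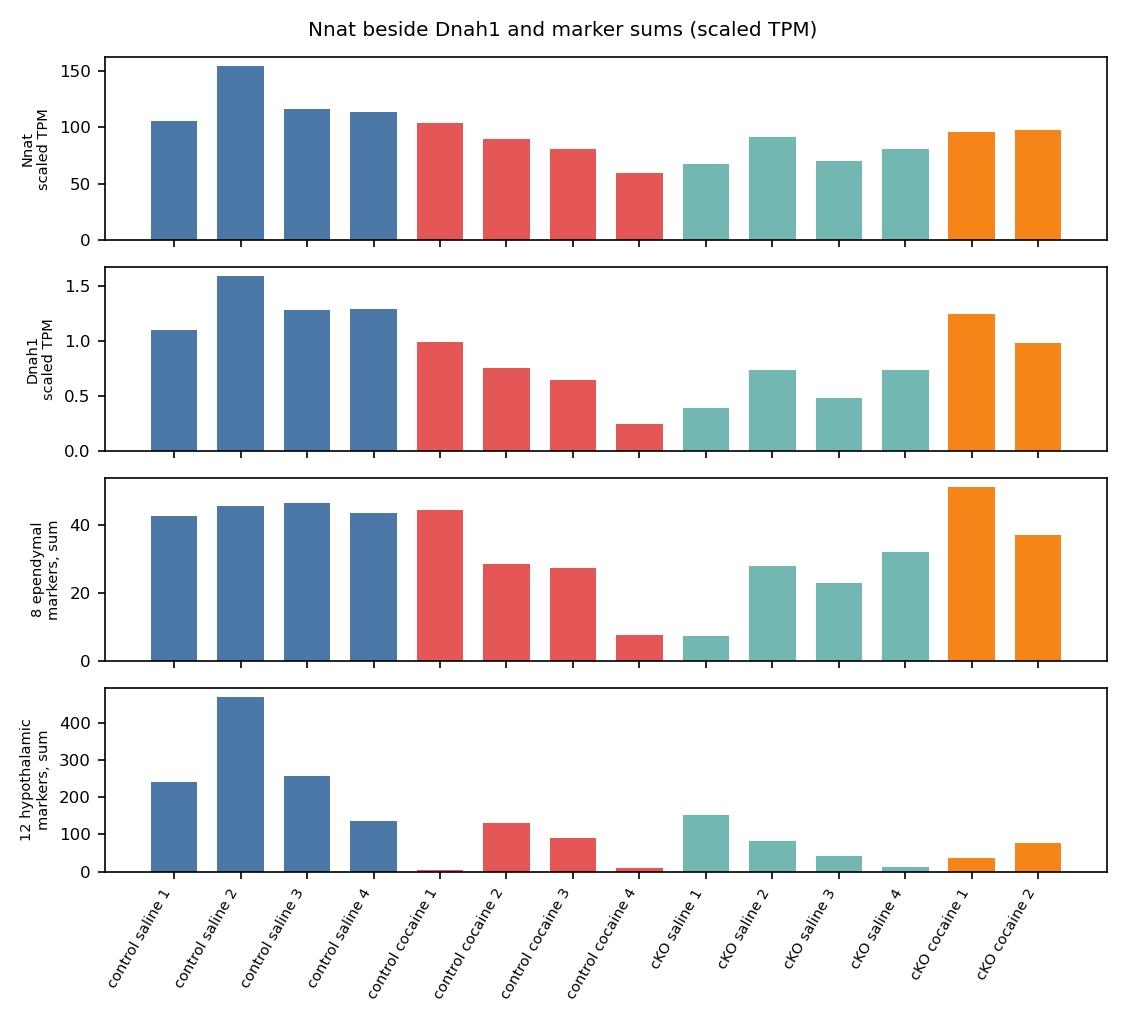
Bars show, for each of the 14 libraries (horizontal axis), the scaled TPM of Nnat and of Dnah1 and the summed scaled TPM of 8 ependymal and 12 hypothalamic marker genes (vertical axes), coloured by group label. Nnat and Dnah1 are lowest in control cocaine 4 and highest in control saline 2, and the ependymal sum is lowest in cKO saline 1 (7.41) and control cocaine 4 (7.80).

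Plagl1 was lower after cocaine under the control label by less than the fold minimum. The saline controls had 3.85, 4.43, 3.14 and 3.44 scaled TPM, and the cocaine libraries of that label 2.26, 3.12, 2.43 and 2.47. The groups were separate only narrowly, by control cocaine 2 and control saline 3. The log2 change was -0.46 (SE 0.12, 95% interval -0.72 to -0.19, adjusted p = 0.0173 in limma), and it is a little understated because 0.5 was added to these low values. Without control cocaine 2 (-0.54) or control saline 3 (-0.52) the fold minimum was reached, as it was with 0.1 added in place of 0.5 (-0.51) and with the libraries whose labels agree (-0.59). Leaving out some other single libraries weakened it. The change was then as small as -0.38, and the adjusted p rose to at most 0.0525 in limma, above the threshold. Under the cKO label Plagl1 was 3.92, 3.04, 3.19 and 2.54 after saline and 3.30 and 3.10 after cocaine, which gave a log2 change of 0.02 (SE 0.15, adjusted p = 0.939 in limma). The difference between the labels was 0.48 (SE 0.19, adjusted p = 0.209 in limma), and the average over them -0.22 (SE 0.10, adjusted p = 0.105 in limma). The gene most like Plagl1 was Gpr101, an orphan receptor (r = 0.915), which was 1.82 to 3.81 scaled TPM in control saline and 0.775 to 1.90 in control cocaine. The hypothalamic markers given beside Nnat were also higher in control saline than in control cocaine, and their part was not tested.

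Impact, on chromosome 18, showed the smallest of the 3 separated differences. It was 92.6, 110.1, 90.5 and 91.2 scaled TPM in control saline and 83.1, 89.3, 84.2 and 73.5 under control cocaine. The log2 change of -0.22 (SE 0.08, 95% interval -0.40 to -0.04) missed the threshold (adjusted p = 0.0771 in limma), although no library overlapped (exact permutation p = 0.0286). Under the cKO label its values were 95.4, 80.3, 93.9 and 80.5 after saline and 85.9 and 76.9 after cocaine, so that the change there was -0.10 (SE 0.10, adjusted p = 0.527 in limma). Averaged over the labels it was -0.16 (SE 0.07, adjusted p = 0.0825 in limma). Its pattern was most like that of Gprasp2, which encodes a receptor-sorting protein (r = 0.957), and among the 10 genes its pattern was closest to that of Plagl1 (r = 0.785).

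Igf2, Cdkn1c and H19 lie in the same imprinted region at the distal end of chromosome 7, where Igf2 and H19 share enhancers and an insulator that is methylated on the paternal allele. All 3 stood high in control saline 1. Igf2 was 24.1, 5.35, 5.69 and 5.54 scaled TPM in control saline, a gap between library 1 and the rest that was far larger than any other difference in this gene. Cocaine libraries of the control label had 6.45, 3.93, 5.89 and 5.78, and the cKO label 4.71, 4.88, 4.10 and 7.65 after saline and 5.66 and 7.39 after cocaine. Cdkn1c was 3.52, 1.06, 1.00 and 1.13 in control saline and 0.962 to 1.46 in the other 10 libraries. H19 was 0.308 in control saline 1, 0.0228, 0.0235 and 0.0159 in control saline 3, control cocaine 2 and cKO saline 1, and was listed at 0 in the other 10 libraries, so that no fold is given.

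Under the control label Igf2 changed by -0.53 on the log2 scale (SE 0.39, 95% interval -1.37 to 0.30, adjusted p = 0.341 in limma), and without control saline 1 by -0.04 (SE 0.19, adjusted p = 0.914). Cdkn1c changed by -0.21 (SE 0.25, adjusted p = 0.575 in limma), and without that library by 0.12 (SE 0.12, adjusted p = 0.511). For cKO against control after saline the differences were -0.59 for Igf2 and -0.21 for Cdkn1c, and -0.09 and 0.13 without that library. H19 could only be compared by the exact permutation test, which gave p = 0.714 for cocaine under the control label and p = 0.429 for cKO against control after saline. No contrast between groups was called for these 3 genes.

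The same library was highest for markers of 2 tissues that border the cerebrospinal fluid. Choroid plexus, the epithelium in the ventricles that makes this fluid, and the leptomeninges on the brain surface are known sites of Igf2 expression in the adult brain. The summed choroid plexus markers were 1457 scaled TPM in control saline 1 and at most 57.4 in the other 13 libraries, and Ttr, the transthyretin gene that marks this epithelium, was 1406 against a median of 9.89 elsewhere. Folr1 and Kcne2 were at 0 in at least 1 other library. The summed leptomeningeal markers, among them Col1a1, Col1a2 and Lum, were 42.1 in control saline 1 and 11.2 to 19.3 elsewhere. Relative to the median of the other 13 libraries Igf2 was 4.26 times and Cdkn1c 3.08 times as high in control saline 1, and Lum was 5.73 times and Kl 41.7 times as high. The gene most like Igf2 was Pcolce, a procollagen-processing enhancer (r = 0.935, and 0.60 without control saline 1), and that most like Cdkn1c was Enpp2, an enzyme gene strongly expressed in choroid plexus (r = 0.949, and 0.47 without it). Enpp2 was 297 scaled TPM in control saline 1 and 34.5 to 57.0 in the others. The part of these tissues in the 3 genes was not tested.

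**Figure D3:**
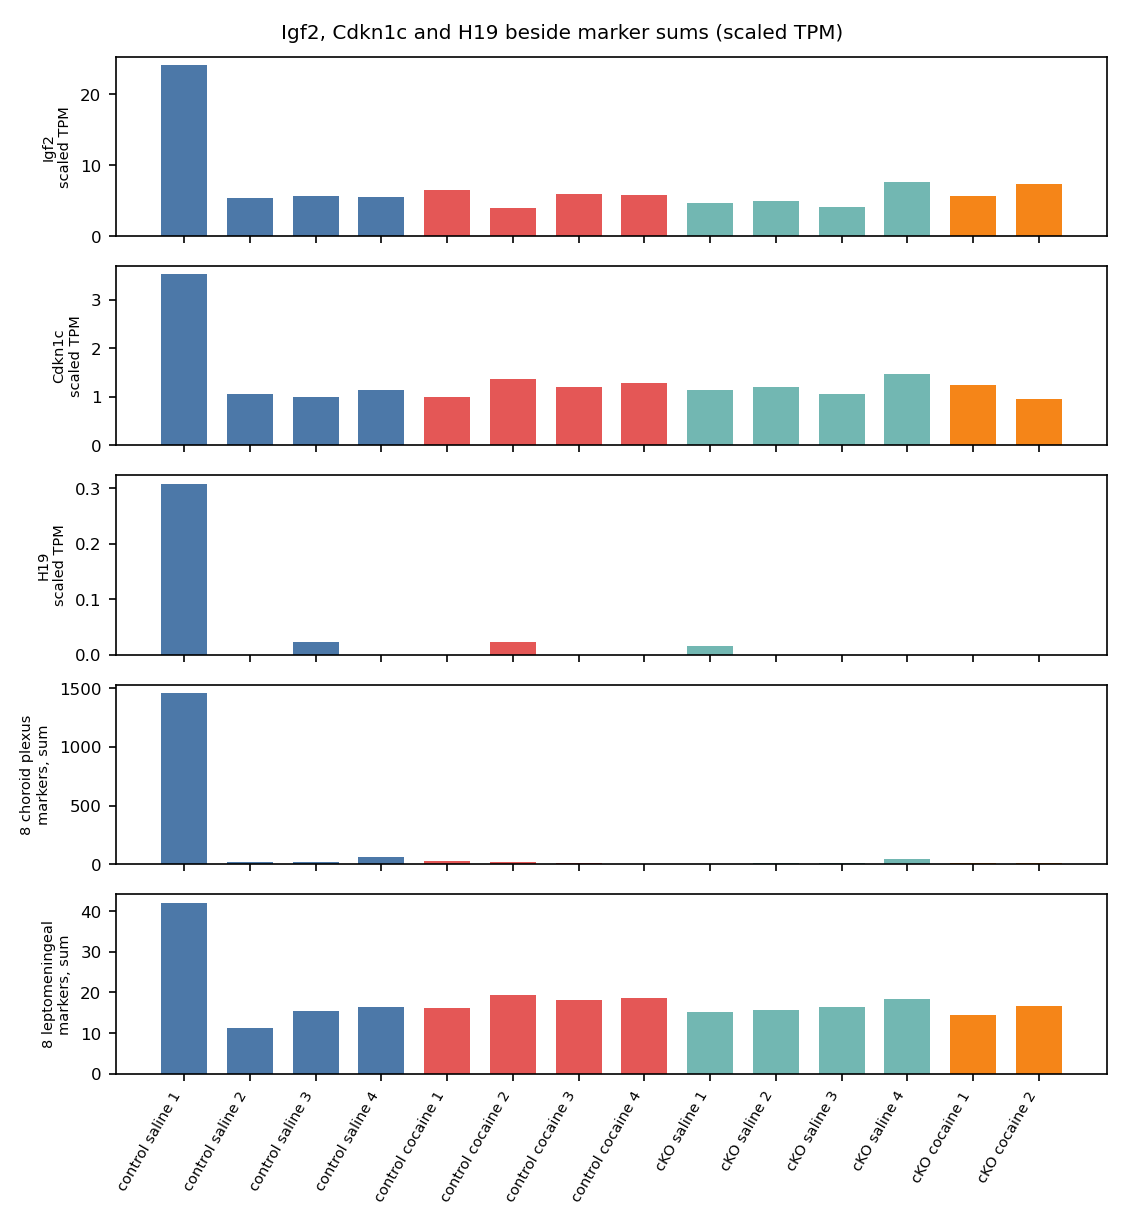
Scaled TPM of Igf2, Cdkn1c and H19 and summed scaled TPM of 8 choroid plexus and 8 leptomeningeal marker genes (vertical axes) in each of the 14 libraries (horizontal axis), coloured by group label. Control saline 1 is the highest bar in all 5 panels, with Igf2 at 24.1 and the choroid plexus sum at 1457.

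Peg3, Snrpn and Nap1l5 overlapped between the groups in each of the 4 contrasts between single groups. Under the control label Peg3 ranged from 83.4 to 101 scaled TPM after saline and 77.7 to 100.3 after cocaine, and under the cKO label from 71.7 to 90.6 and 90.5 to 93.7. Its change with cocaine under the control label was -0.01 (SE 0.09, 95% interval -0.20 to 0.18). Nap1l5 ranged from 173 to 208, 171 to 202, 163 to 201 and 181 to 184 in the same order, with a change of -0.02 (SE 0.08, 95% interval -0.19 to 0.15). The intervals of both genes leave out a change as large as the fold minimum. Over the 14 libraries these genes varied by 1.41 times and 1.28 times from the lowest to the highest value, while Nnat varied by 2.60 times. Peg3 and Nap1l5 were each other's closest gene of the 10 (r = 0.833), and over all genes Peg3 was most like Scg2, a secretogranin of neuropeptide vesicles (r = 0.928).

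Under the control label Snrpn ranged from 149.96 to 168 scaled TPM after saline and 156 to 179 after cocaine, and under the cKO label from 159 to 199 and 155 to 175. Its change with cocaine under the control label was 0.06 (SE 0.07, 95% interval -0.10 to 0.22). The Snrpn transcript also holds Snurf, a short upstream reading frame that the annotation lists as a gene of its own inside Snrpn, and reads on their shared exons can be split between the pair. The highest Snrpn value, 199 in cKO saline 1, came with the lowest Snurf value, 20.1, where Snurf was 9.16% of their sum, against 15.2% to 26.7% in the other libraries. With the values summed, a step chosen after the data were seen, the cocaine change under the control label was 0.09 (SE 0.05, adjusted p = 0.24 in limma) and cKO against control after saline moved from 0.12 to 0.03.

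Grb10 was 15.8, 18.3, 16.0 and 16.5 scaled TPM in control saline and 14.3, 13.9, 15.3 and 13.5 in cKO saline. Every cKO library was lower (exact permutation p = 0.0286), with a log2 difference of -0.22 (SE 0.08, 95% interval -0.38 to -0.05, adjusted p = 0.189 in limma), and with the genotype tags in place of the titles the difference was -0.02 (SE 0.10). Nnat and Grb10 were the 2 of the 9 genes with such separation after saline, where 5.80% of all tested genes were lower without overlap. In control cocaine Grb10 was 18.7, 16.5, 15.3 and 14.6, a change of -0.04 (SE 0.08), and in cKO cocaine 17.7 and 15.3, a change of 0.20 from cKO saline (SE 0.09, adjusted p = 0.15 in limma).

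Outside cocaine under the control label, none of the 9 tested genes was called. For cocaine under the cKO label the count was 0 of 9 (0 at an unadjusted p under 0.05), where 3.07% of all tested genes were called. For cKO against control after saline it was 0 (2 at an unadjusted p under 0.05) where 0.0445% were called, and for the cKO against the control label after cocaine 0 (0 unadjusted) where 0.0371% were called. For the difference between the cocaine changes it was 0 (2 unadjusted) where 0.854% were called, and for the average over the labels 0 (2 unadjusted) where 2.07% were called. The unadjusted counts stand beside larger shares of all tested genes at an unadjusted p under 0.05. In the same order these shares were 33.7%, 16.7%, 12.1%, 18.5% and 42.7%. With 2 libraries in cKO cocaine the smallest exact permutation p against 4 libraries is 0.0667.

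**Figure D4:**
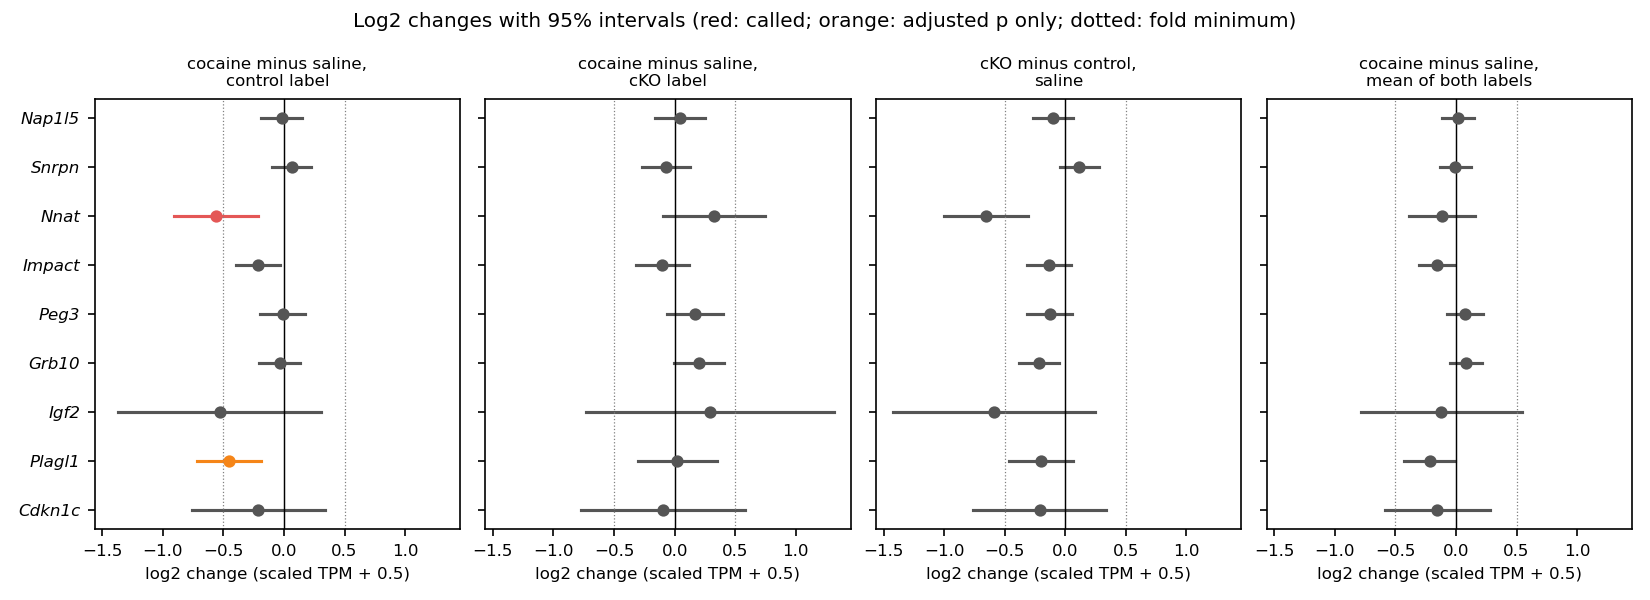
Log2 changes (horizontal axes, on the scale of scaled TPM + 0.5) with 95% limma intervals for the 9 tested genes (vertical axis) in 4 contrasts. Nnat at -0.56 under the control label is the single called change (red), Plagl1 at -0.46 passes the adjusted p alone (orange), and the intervals of Igf2 and Cdkn1c are the widest.

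A further 41 genes known as imprinted, 34 of them tested, served as the wider class. Whether each of them is imprinted in thalamus cannot be seen from these values. With cocaine under the control label 2 of the 34 were called, Zdbf2 and Ndn, both lower and both known as paternally expressed, and the median change over the 34 was -0.08, beside the 1.56% of all tested genes called lower. By the adjusted p alone 3 were higher (Peg13, Zrsr1 and Osbpl5) and 5 lower (Mest, Ube3a and Copg2 beside the called genes), names that were chosen after their values were seen. These 8 of 34 stand beside 24.3% of all tested genes that passed the adjusted p in either direction, and the 5 lower beside 9.35%. Zdbf2, a zinc finger gene, was 6.10, 7.80, 6.19 and 6.07 scaled TPM in control saline and 4.42, 4.08, 4.15 and 4.27 in control cocaine, a log2 change of -0.57 (SE 0.09, adjusted p = 0.00126 in limma) without overlap. Averaged over the labels it was -0.38 (SE 0.07, adjusted p = 0.0018 in limma), below the fold minimum. Ndn, which encodes necdin, a protein of the same MAGE family as Maged1, was 135, 147, 115 and 115 in control saline and 93.0, 120.2, 68.9 and 63.0 in control cocaine. These overlapped, with a change of -0.61 (SE 0.17, adjusted p = 0.022 in limma), and the average over the labels was -0.34 (SE 0.14, adjusted p = 0.0687 in limma). In the other 5 contrasts 0 of the 34 were called. At an unadjusted p under 0.05 there were 8 of the 34 for cocaine under the cKO label (33.7% of all tested genes), 7 for cKO against control after saline (16.7%), 3 for the labels after cocaine (12.1%), 6 for the difference between cocaine changes (18.5%) and 14 for their average (42.7%). Of 7 tested regulators that keep or read imprints, 0 were called with cocaine under the control label, where 3.10% of all tested genes were called in either direction. The adjusted p alone was passed by 24.3% of all tested genes in either direction. Among the 7 regulators Ctcf, the insulator protein, passed it and was higher (0.20, adjusted p = 0.00774 in limma). Zfp445, a zinc finger protein that protects imprints, also passed it and was lower (-0.24, adjusted p = 0.0026 in limma).

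**Figure D5:**
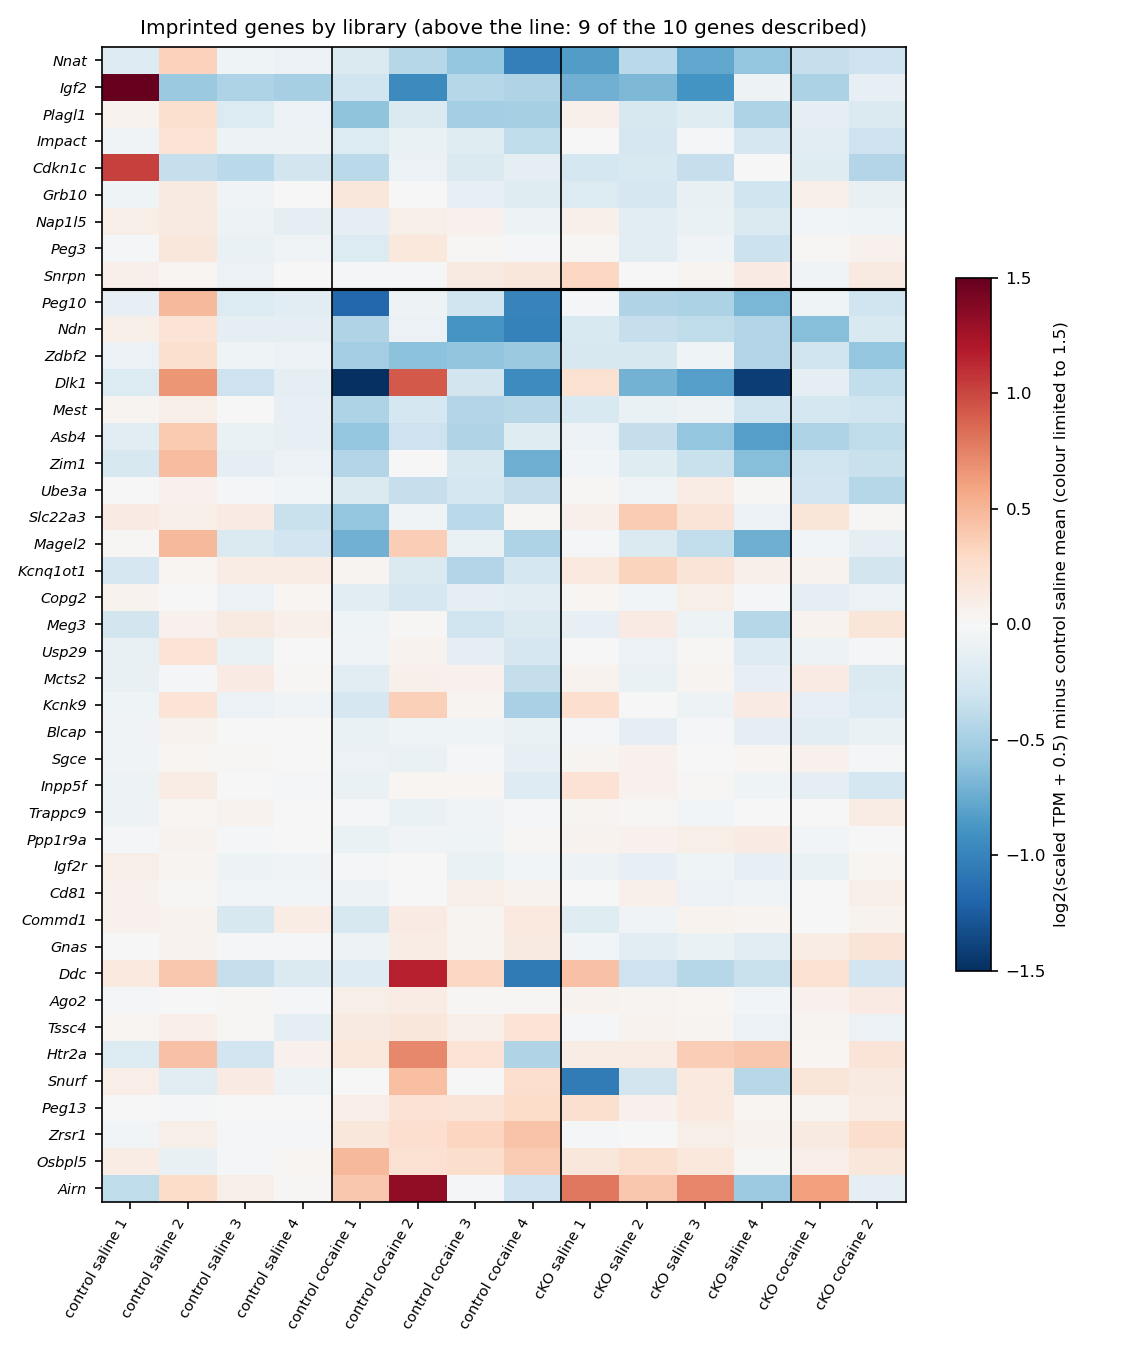
Colours give, for each library (horizontal axis), the log2(scaled TPM + 0.5) of each imprinted gene (vertical axis) minus its mean in control saline, with the 9 tested genes above the line and 34 further imprinted genes below, ordered by their change with cocaine under the control label. Igf2 and Cdkn1c are red in control saline 1, and Nnat, Ndn and Zdbf2 are blue in most control cocaine libraries.

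The genes lie in several imprinted clusters (GENCODE M21, GRCm38). Nnat (chromosome 2, 157560078 to 157562522, plus strand) lies within Blcap and Nap1l5 (chromosome 6, 58905233 to 58907076, minus strand) within Herc3, so that each is a short gene inside another. Blcap, the host of Nnat, held 33.3 to 35.9 scaled TPM after saline and 32.3 to 33.2 after cocaine under the control label, a change of -0.08 where Nnat changed by -0.56. Plagl1 is at 13060504 to 13131694 on the plus strand of chromosome 10 and Grb10 at 11930508 to 12038683 on the minus strand of chromosome 11. Besides Impact, placed above, the other 5 are on chromosome 7, all on the minus strand: Peg3 (6703892 to 6730431), Snrpn (59982495 to 60140219), H19 (142575529 to 142578143), Igf2 (142650766 to 142666816, 72.6 kb from H19) and Cdkn1c (143458339 to 143461050).

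Promoter windows from 250 bases before to 50 after a gene start were found in RefSeq (GRCm38.p6) for 7 of the 10 genes and not for Cdkn1c, H19 and Impact. The 4 windows below are those of the genes past the adjusted p under the control label, Nnat and Plagl1, and of Nap1l5 and Peg3, whose groups overlapped. Capitals mark TGCCGC on either strand, the sequence that the imprint-keeping protein ZFP57 reads when it is methylated, and in Peg3 the cyclic AMP response element TGACGTCA, where CREB binds. The motifs share no stretch and do not overlap in these windows.
Nnat (chr2:157559828-157560127, plus strand): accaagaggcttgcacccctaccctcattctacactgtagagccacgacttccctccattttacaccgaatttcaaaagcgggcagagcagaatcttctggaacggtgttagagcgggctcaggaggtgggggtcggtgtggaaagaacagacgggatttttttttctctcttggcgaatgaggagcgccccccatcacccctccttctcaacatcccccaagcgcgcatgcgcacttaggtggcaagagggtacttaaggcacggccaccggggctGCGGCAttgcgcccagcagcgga
Plagl1 (chr10:13090582-13090881, plus strand): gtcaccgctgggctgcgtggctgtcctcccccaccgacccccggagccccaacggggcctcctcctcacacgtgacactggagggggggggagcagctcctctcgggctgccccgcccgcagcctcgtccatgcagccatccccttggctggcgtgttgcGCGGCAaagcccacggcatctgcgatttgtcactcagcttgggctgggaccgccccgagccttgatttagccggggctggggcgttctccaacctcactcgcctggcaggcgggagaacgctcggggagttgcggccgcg
Nap1l5 (chr6:58907077-58907376, minus strand): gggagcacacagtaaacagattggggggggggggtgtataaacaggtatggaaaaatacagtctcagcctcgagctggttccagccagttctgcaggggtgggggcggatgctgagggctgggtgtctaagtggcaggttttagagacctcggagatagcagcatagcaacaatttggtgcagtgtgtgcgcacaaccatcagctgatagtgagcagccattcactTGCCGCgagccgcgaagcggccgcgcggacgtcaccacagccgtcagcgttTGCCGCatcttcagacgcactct
Peg3 (chr7:6730370-6730669, minus strand): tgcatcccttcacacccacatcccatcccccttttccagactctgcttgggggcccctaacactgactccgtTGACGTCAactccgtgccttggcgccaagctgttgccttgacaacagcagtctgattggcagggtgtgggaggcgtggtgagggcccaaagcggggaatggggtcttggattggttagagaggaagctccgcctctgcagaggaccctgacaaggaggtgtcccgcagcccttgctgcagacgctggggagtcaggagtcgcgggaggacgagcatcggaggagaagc
TGCCGC occurred 1 time in the Nnat and Plagl1 windows, 2 times in that of Nap1l5 and 0 times in that of Peg3, and 11.6% of all windows held it. TGACGTCA occurred in the Peg3 window alone of the 4, and 1.79% of all windows held it. The windows held 17, 26, 17 and 13 CpG sites in the order shown, beside a median of 8 over the most CpG-rich window of each gene. Over all their windows, 6 of the 7 genes (all but Peg3) held TGCCGC in at least 1, a count that pools several windows for some genes and has no matching share. In their most CpG-rich window 5 of the 7 held it, beside 12.2% over all genes. TGCCGC itself holds a CpG, and this share was not matched for the number of CpG sites. A match is a run of letters and not a bound site.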

How the data were processed

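Mouse thalamus RNA was depleted of ribosomal RNA and sequenced as stranded paired-end reads. Per the study's methods, reads were mapped with STAR 2.5.3a to GRCm38.p4 and quantified with Salmon, and the authors deposited 1 table of TPM per library. In 2 tables the authors wrote TPM with a decimal comma (recorded as other), which was read as a point. TPM keep no depth, so no counting interval is given.

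Here TPM were divided by unweighted TMM factors (trimming 30% of log ratios and 5% of means at either end) and log2(scaled TPM + 0.5) was used. The filter of 1 TPM or more in 3 or more libraries left the genes for limma 3.58.1 (R 4.3.3), fitted as 4 group means with an intensity trend and Benjamini-Hochberg adjustment over all 13471 genes. Calls needed an adjusted p under 0.05 and an absolute log2 change of at least 0.5. Single genes were also compared by exact two-sided permutation of the libraries. The scaling and test were tested on simulated data. Promoter windows and figures were handled in Python 3.11.15.

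The genes and lists were chosen with earlier results of these data known. Named were the 10 genes, Maged1, the tested gene most correlated with each, other imprinted genes called in a contrast, and markers by list sums. Alternatives were other scalings, pseudocounts and filters, fits of the compared groups alone, no trend, a replicate block, the genotype tags, and each library left out. Replicate numbers did not pair the libraries.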

Additional observations from a re-analysis of the deposited data

Results flagged for a closer look

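A single library stood far from the rest of its group of 4 in 7 of 36 groups examined by Dixon's test at the 95% level, where chance gives about 1 in 20 groups without ties. Of the 7, 3 were the same library, control saline 1, and 2 were H19 groups with all other values at 0, where the test is met by construction and says nothing. In control saline 1, Igf2 was 24.1 scaled TPM (next 5.69), Cdkn1c was 3.52 (next 1.13) and H19 was 0.308 (next 0.0228). The choroid plexus and leptomeningeal markers were also highest there, and their part was not tested. H19 was the only value above 0 in its group in control cocaine 2 (0.0235) and in cKO saline 1 (0.0159). In control saline 2, Impact was 110.1 (next 92.6) and Zdbf2 was 7.80 (next 6.19), and this library also held the highest sum of hypothalamic markers, 469.8 scaled TPM, whose part was not tested.

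Nnat was lower in every cocaine library under the control label and higher in every cocaine library under the cKO label. The difference between these log2 changes was 0.89 (SE 0.25, adjusted p = 0.0884 in limma), short of the threshold, and with the genotype tags it was 0.34 (adjusted p = 0.884). Maged1 levels went against the genotype labels in these cocaine libraries.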

How the results depend on the processing

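Of 1380 recomputed log2 changes of single genes, 1300 kept their direction and their side of the call, 5 lost the call, 10 gained it and 65, called under neither setting, changed sign. None that was called changed sign. The number of the 9 genes called lower with cocaine under the control label, 1 as reported, was 4 with TPM as deposited, 2 with a pseudocount of 0.1, 0 when only the compared groups were fitted and 0 with the genotype tags, and ran from 0 to 2 when 1 library was left out. It was 0 without control saline 2 or control cocaine 4 and 2 without control saline 3 or control cocaine 2. With TPM as deposited the median change of all tested genes under the control label was -0.34, and averaged over the labels, where 2 of the 9 (Impact and Plagl1) were then called lower in place of 0, it was also -0.34. The number called higher for the difference between cocaine changes ran from 0 to 1 when 1 library was left out, being 1 (Nnat) without control cocaine 1 (1.00, adjusted p = 0.0467 in limma). Leaving out a cKO cocaine library leaves 1, which is then assumed to vary like the other groups.

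Replicate numbers did not pair the libraries: deviations from the group means had a mean correlation of -0.0139 over 18 same-numbered pairs (-0.165 to 0.103), and 3 of 14 libraries were best correlated with their own number. With the replicate block, Nnat under the control label stayed at -0.56 (adjusted p = 0.0226 in limma), and the number of the 9 genes called did not change in any contrast.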

Other observations

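Ube3a, the imprinted ubiquitin ligase gene of the Angelman region, was chosen here after its values were seen. It was 17.1, 18.0, 17.1 and 16.8 scaled TPM in control saline and 14.8, 13.4, 14.2 and 13.5 in control cocaine, and 17.4, 16.7, 18.7 and 17.4 in cKO saline beside 14.1 and 12.7 in cKO cocaine. Under each label all cocaine libraries lay below all saline libraries. Under the control label alone, 10.3% of all tested genes were lower without overlap, and the share for both labels together was not counted. The log2 change was -0.29 (SE 0.05) under the control label, -0.38 (SE 0.06) under the cKO label and -0.33 (SE 0.04) on average, below the fold minimum in each case.

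Mest, also chosen after its values were seen, was 15.4, 15.9, 14.9 and 13.6 in control saline and 10.6, 12.3, 10.9 and 11.0 in control cocaine, a log2 change of -0.40 (SE 0.06). Under the cKO label Mest was 12.6, 13.9, 14.1 and 12.01 after saline and 12.3 and 12.1 after cocaine, a change of -0.10 (SE 0.08).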
